A study of Mus musculus with 7 samples.

Results

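Germ granule and piRNA pathway genes were followed in 10 members (Ddx4, Dazl, Nanos3, Piwil2, Mael, Asz1, Tdrd1, Tdrd9, Gtsf1 and Tex15), chosen by name among the 31053 genes counted in every library of a mouse fetal and newborn ovary series. Single-cell suspensions of pooled gonads from untreated wild-type C57BL/6J mice were sequenced on the 10x Genomics platform at 7 ages, with 1 library per age: whole gonads at E11.5 (E stands for embryonic day), ovaries at E12.5 and E14.5, ovaries at E16.5 and at E18.5, and ovaries on postnatal days 1 (P1) and 5 (P5). A cell was kept when it held at least 200 genes (50823 cells), and was taken as a germ cell when its unique molecular identifiers (UMIs) for Sycp3, Pou5f1, Dazl and Ddx4 summed to at least 4, and as somatic otherwise. The gate gave 5052 germ cells and 45771 somatic cells, with 38 germ cells at E11.5, then 338 at E12.5 and 2665 at E14.5, then 1178 at E16.5 and 480 at E18.5, and last 282 at P1 and 71 at P5. Dazl and Ddx4 are part of the gate, so their levels are described without a test, and only the other 8 members were tested.

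Germ granules, or nuage, are RNA and protein assemblies without a membrane that gather around the nucleus and the mitochondria of germ cells. In them PIWI proteins, members of the Argonaute family, load small guide RNAs called piRNAs that direct the silencing of transposons, and Tudor domain proteins hold the PIWI proteins in place by binding their methylated arginines. In the mouse the pathway is known above all from the fetal and adult testis, where its loss derepresses LINE and IAP elements, while many of the same genes are also expressed in fetal germ cells of the ovary and in oocytes.

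Depth and cell identity set the precision of each value. Kept cells held 31960736 to 124390521 UMIs per library, and the germ cells 791216 at E11.5 to 36433611 at E14.5, with a median per germ cell of 11548 at E18.5 to 54018 at P5 and per somatic cell of 5699 at E14.5 to 10691 at E12.5. In the germ cells, 4 early markers (Utf1, Dppa5a, Sall4 and Dppa4) summed to 4336 CPM (UMIs of a gene scaled to the sum of all UMIs) at E11.5, 45.9 at E16.5 and 578 at P5, 4 meiotic markers (Syce3, Sycp1, Taf7l and Hormad1) were highest at E16.5 with 4426, and 4 oocyte markers (Figla, Nobox, Zp3 and Ooep) were highest at P5 with 5596. Figla and Nobox were at 0 in the 38 germ cells of E11.5, and Zp3 at 0 in those of E16.5. The summed level of 5 supporting cell markers was 11.4 to 191 CPM in germ cells and 103 to 1713 in somatic cells. Y-linked UMIs were found in 36.8% of germ cells and 28.3% of somatic cells at E11.5, in 5.92% and 7.19% at E12.5, and in at most 1.41% of either at later ages, and their part in the values of the first 2 ages was not tested. The libraries shared 907 of 49901 cell barcodes between at least 2 of them. E16.5 shared 0 to 3 barcodes with each other library, whereas the pairs without E16.5 shared 20 to 131. Mitochondrial UMIs made up 7.54% of germ cell UMIs at E16.5 and 2.81% to 5.15% at the other ages. Whether the E16.5 library differed in its handling, and the part of this in its values, was not tested. With 1 library per age, differences between single ages have no replicate, intervals cover counting error only, and age cannot be told apart from the library or from the trypsin time, which went from 20 min at E11.5 and E12.5 to 80 min at P1 and P5.

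The 250 bases before the annotated start were at hand for 8 of the 10 members in RefSeq (GRCm38.p6), and not for Piwil2 and Tex15. These 8 members have 10 windows, of which 5 hold CACGTG, the E-box letters, among 32851 windows of all genes, of which 6.02% do. The 5 windows belong to Ddx4, Mael, Tdrd9 and Tdrd1, where 2 of its 3 windows overlap and hold it. 1 window of each gene is shown, and these genes were not all highest at the same age (E16.5, E18.5, P1 and P1). Capitals mark CACGTG and, in Mael and Ddx4, TCCCGC or its reverse complement GCGGGA, letters found in 16.9% of all windows. The windows of Nanos3, Dazl, Asz1 and Gtsf1 hold neither, and that of Nanos3 is shown as an example. The Nanos3 window precedes a RefSeq start inside the gene as counted, which spans 84173731 to 84185217 on the minus strand. It therefore does not hold the bases upstream of the counted gene. The Ddx4 window also precedes a RefSeq start inside the gene as counted, which runs to 112652475 on the minus strand. Both stretches marked in it lie within that gene and not upstream of it. The Mael window overlaps its counted gene, which runs to 166238747, by its last bases only, outside the marked stretches. None of the 8 members' windows holds CNCCTCAG on either strand, which 6.42% of all windows do. The windows are chr13:112652311-112652560 (minus strand) for Ddx4, chr1:166238745-166238994 (minus) for Mael, chr19:56825959-56826208 (plus) for the first of 3 Tdrd1 starts, chr12:111971309-111971558 (plus) for Tdrd9 and chr8:84176553-84176802 (minus) for Nanos3, each printed 5′ to 3′ on the strand of its gene.
Ddx4: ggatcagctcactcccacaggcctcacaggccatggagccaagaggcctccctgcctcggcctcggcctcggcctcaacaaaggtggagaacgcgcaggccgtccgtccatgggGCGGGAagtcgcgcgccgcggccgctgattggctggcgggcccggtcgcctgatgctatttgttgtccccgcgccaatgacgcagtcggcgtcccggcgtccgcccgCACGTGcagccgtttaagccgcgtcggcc
Mael: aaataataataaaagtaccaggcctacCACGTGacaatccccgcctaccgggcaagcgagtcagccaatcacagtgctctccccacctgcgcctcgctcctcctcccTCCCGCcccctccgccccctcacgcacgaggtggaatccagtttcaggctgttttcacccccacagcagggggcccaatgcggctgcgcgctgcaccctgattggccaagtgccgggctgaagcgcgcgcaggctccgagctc
Tdrd1: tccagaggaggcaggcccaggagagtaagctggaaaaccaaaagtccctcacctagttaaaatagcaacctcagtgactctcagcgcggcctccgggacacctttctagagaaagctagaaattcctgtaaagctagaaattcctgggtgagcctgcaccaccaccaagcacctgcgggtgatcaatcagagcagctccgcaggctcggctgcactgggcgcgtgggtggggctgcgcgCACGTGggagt
Tdrd9: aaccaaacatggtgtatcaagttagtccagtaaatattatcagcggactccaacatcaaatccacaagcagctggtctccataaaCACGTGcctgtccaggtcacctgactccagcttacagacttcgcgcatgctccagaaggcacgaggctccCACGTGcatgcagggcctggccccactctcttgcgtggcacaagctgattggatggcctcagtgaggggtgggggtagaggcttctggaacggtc
Nanos3: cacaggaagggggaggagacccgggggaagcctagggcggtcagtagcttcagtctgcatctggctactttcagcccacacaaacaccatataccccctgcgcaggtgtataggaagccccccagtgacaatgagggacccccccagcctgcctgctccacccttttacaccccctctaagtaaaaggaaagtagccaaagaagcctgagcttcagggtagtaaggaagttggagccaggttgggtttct
A letter match describes the window and is no evidence of a bound factor. CpG dinucleotides numbered 31 in the Ddx4 window, 18 in that of Mael, 11 in that of Tdrd1, 8 in that of Tdrd9 and 3 in that of Nanos3, where the median window of all genes had 6.

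The members did not all peak at the same age. In germ cells Nanos3 was highest at E11.5, Dazl at E14.5, both Ddx4 and Tex15 at E16.5, both Mael and Asz1 at E18.5, then Tdrd9, Piwil2 and Tdrd1 at P1, and Gtsf1 at P5. At E11.5 the values of the other 9 were their lowest. Those of Tdrd9 (0 UMIs), Tdrd1 (1 UMI) and Gtsf1 (2 UMIs), however, could not be told from their values at E12.5. The number of the 8 members outside the gate seen per germ cell, counting those with at least 1 UMI, had a median of 1 at E11.5, 3 at both E12.5 and E14.5, 5 at both E16.5 and E18.5, then 6 at P1 and 7 at P5, against 0 in somatic cells at every age. With each cell thinned to 2000 UMIs, the expected mean was 0.156 members per germ cell at E11.5, then 0.384 at E12.5 and 0.818 at E14.5, then 1.85 at E16.5 and 2.47 at E18.5, and last 2.75 at P1 and 2.37 at P5, and 0.0225 to 0.0763 per somatic cell. Thinning left out 0 to 151 germ cells and 281 to 1834 somatic cells per library that held fewer UMIs.

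**Figure D1:**
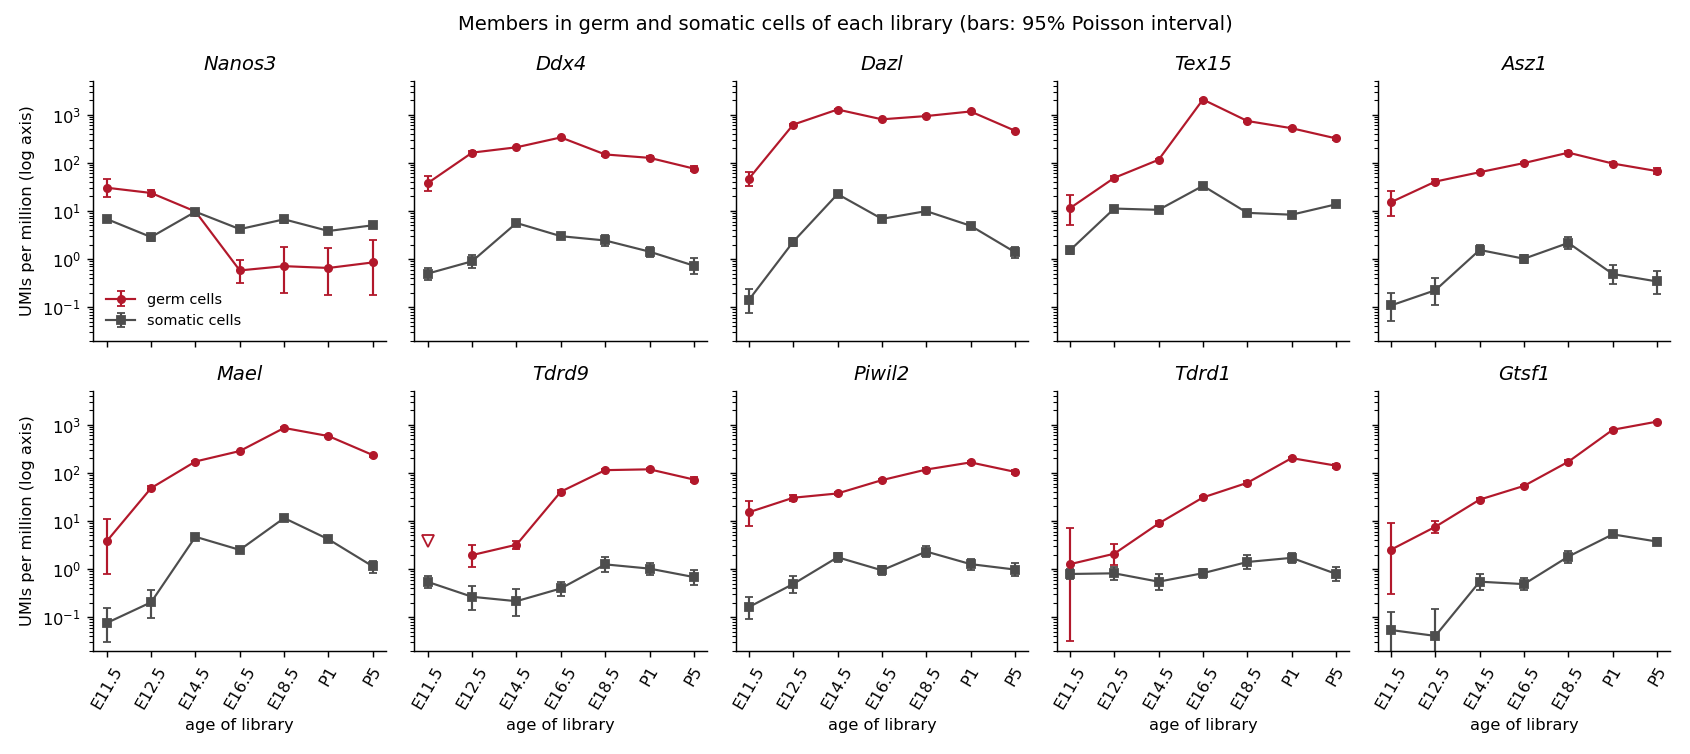
Level of each member in CPM (log axis) by age of library, in germ cells (red circles) and somatic cells (grey squares), 1 library per age, with 95% Poisson intervals; the open triangle marks the limit of 3.79 that 0 UMIs of Tdrd9 allow at E11.5. Germ cell levels lie above somatic levels but for Tdrd9 at E11.5, Tdrd1 at E11.5, where the intervals overlap, and Nanos3, whose lines cross at E14.5 (9.72 against 9.62).

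**Figure D2:**
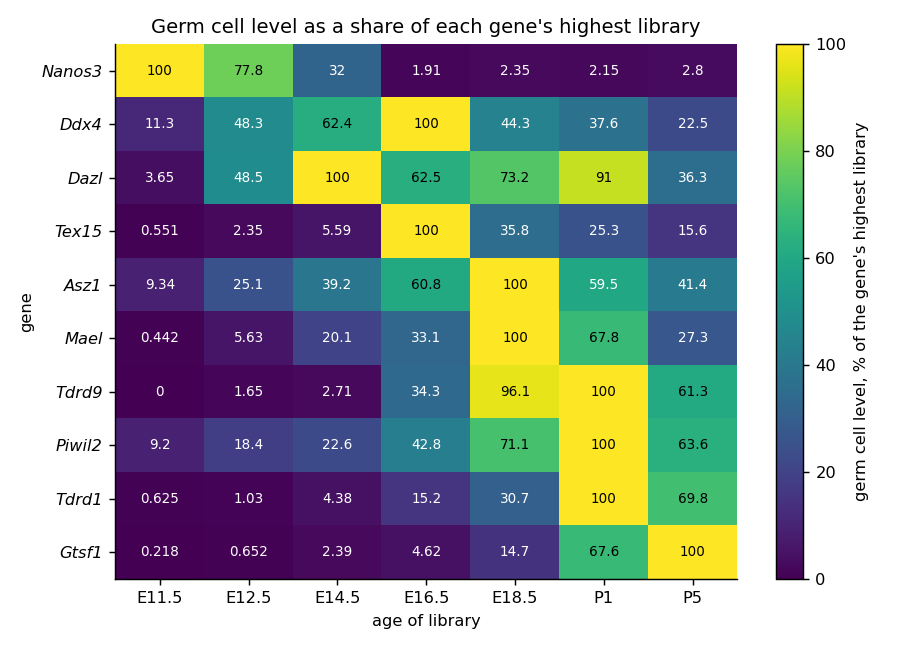
Germ cell level of each member (rows) at each age (columns) as a percentage of its own highest library, in numbers and colour. Tex15 goes from 5.59% at E14.5 to 100% at E16.5, Tdrd1 and Gtsf1 are under 31% until E18.5, and Nanos3 is at most 2.8% from E16.5 on.

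Ddx4, the DEAD-box RNA helicase that marks germ granules from flies to mammals (ENSMUSG00000021758, chromosome 13, 112598333 to 112652475), and Dazl, an RNA-binding protein that controls translation in germ cells (ENSMUSG00000010592, chromosome 17, 50279395 to 50293636), are the members that the gate uses. Ddx4 stood at 37.9 CPM at E11.5 (30 UMIs), then 163 at E12.5 and 209.9 at E14.5, then 337 at E16.5 and 149 at E18.5, and last 127 at P1 and 75.7 at P5. Its level at E16.5 (95% interval 329.6 to 344) overlapped that of no other age, and that at E18.5 was 2.26-fold lower (2.10 to 2.43). Dazl stood at 46.8 at E11.5 (37 UMIs), then 621 at E12.5 and 1279.7 at E14.5, then 800.4 at E16.5 and 936 at E18.5, and last 1165 at P1 and 465 at P5. Dazl was 13.3-fold higher at E12.5 than at E11.5 (9.62 to 18.9) and 2.51-fold lower at P5 than at P1 (2.38 to 2.65). In somatic cells, where the gate leaves at most 3 UMIs per cell, Ddx4 reached 0.553% to 2.67% and Dazl 0.299% to 1.75% of their germ cell levels. These ranges follow from the gate and are given as description.

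Nanos3, an RNA-binding protein needed for the survival of primordial germ cells (ENSMUSG00000056155, chromosome 8, 84173731 to 84185217), was the one member that fell over the ages. In germ cells it stood at 30.3 CPM at E11.5 (24 UMIs), then 23.6 at E12.5 (181 UMIs) and 9.72 at E14.5 (354 UMIs), then 0.580 at E16.5 (15 UMIs) and 0.711 at E18.5 (4 UMIs), and last 0.652 at P1 (4 UMIs) and 0.850 at P5 (3 UMIs). The first 2 ages did not differ beyond counting error (ratio 1.29, 0.803 to 1.97), E12.5 was 2.43-fold above E14.5 (2.02 to 2.91), E14.5 was 16.8-fold above E16.5 (10.0 to 30.3), and the neighbouring ages after that did not differ beyond theirs. Nanos3 had at least 1 UMI in 47.4% of germ cells at E11.5 and in 1.27% at E16.5, at median depths of 20367 and 23489.5 UMIs.

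Somatic cells held Nanos3 as well, at 6.79 CPM at E11.5, then 2.86 at E12.5 and 9.62 at E14.5, then 4.18 at E16.5 and 6.68 at E18.5, and last 3.83 at P1 and 5.03 at P5. Germ cells were therefore 4.47-fold above somatic cells at E11.5 and 8.25-fold at E12.5, level with them at E14.5 (ratio 1.01), and below them from E16.5 on, with ratios of 0.139 at E16.5 and 0.106 at E18.5, and of 0.171 at P1 and 0.169 at P5. Over the 7 libraries the germ to somatic difference of Nanos3 was -0.86 on the log2 scale (SE 0.90, edgeR quasi-likelihood adjusted p = 0.447), which was not called. Somatic cells were put in classes by summed markers. Nanos3 stood at 3.34 to 12.8 CPM in supporting cells (Foxl2, Wnt4, Wnt6, Kitl and Fst), 2.35 to 8.28 in mesenchymal cells (Nr2f2, Col1a1, Col1a2, Col3a1 and Pdgfra) and 4.11 to 9.36 in epithelial cells (Upk3b, Krt19, Krt7 and Lgals7), against 0 to 0.517 in erythroid cells (by a list that includes Car2, Alas2 and Rhd). Each of the 3 classes was above erythroid cells in 7 of 7 libraries with an interval of the ratio that left out 1, and over all libraries supporting cells were 20.7-fold above them (12.48 to 37.2). The 15 erythroid Nanos3 UMIs came from 3513 cells at median depths of 6766 to 20823.5 UMIs, where the 813 UMIs of supporting cells came from 12066 cells at 5933 to 12304. Somatic cells with 0 gate UMIs alone gave nearly the same levels, 3.19 to 12.46 in supporting and 2.51 to 8.53 in mesenchymal cells. The annotated Nanos3 gene also covers Mir181c and Mir181d on the same strand, which were not counted as genes of their own, so reads of a transcript that carries them cannot be told apart from Nanos3 reads.

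**Figure D3:**
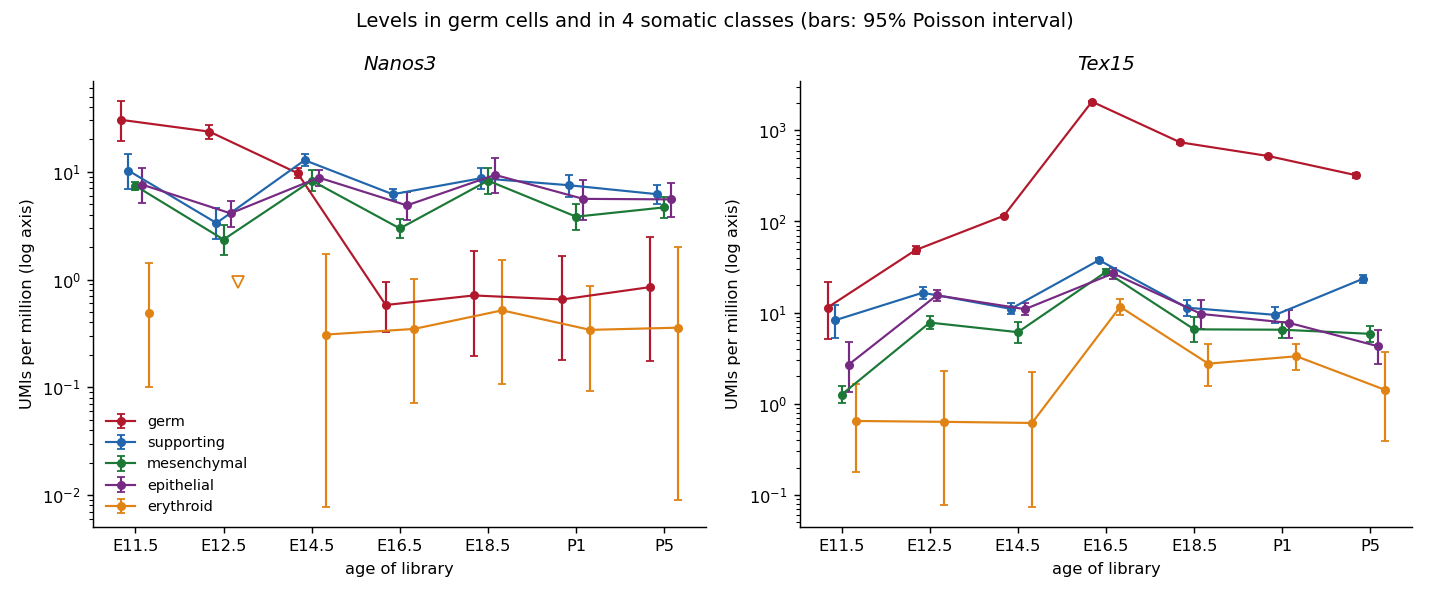
Nanos3 (left) and Tex15 (right) in CPM (log axis) by age of library, in germ cells and in 4 somatic classes, with 95% Poisson intervals; the open triangle is the limit that 0 UMIs allow. Nanos3 is at 2.35 to 12.8 in supporting, mesenchymal and epithelial cells at every age while germ cells drop to 0.580 at E16.5, and erythroid cells stay at or below 0.517.

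Piwil2 (also called Mili, ENSMUSG00000033644, chromosome 14, 70372477 to 70429383), the PIWI protein of the group that binds piRNAs, was present from the start and changed gradually. It stood at 15.2 CPM at E11.5 (12 UMIs), then 30.4 at E12.5 and 37.3 at E14.5, then 70.6 at E16.5 and 117 at E18.5, and last 165 at P1 and 105 at P5. No step between neighbouring ages was larger than 2.003-fold, and P1 (155 to 175) was above every other age beyond counting error. Its somatic level was 0.769% to 4.72% of that in germ cells of the same library.

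Mael and Asz1, 2 nuage proteins that piRNA production depends on, were highest at E18.5. Mael (ENSMUSG00000040629, chromosome 1, 166201201 to 166238747) stood at 3.79 CPM at E11.5 (3 UMIs), then 48.2 at E12.5 and 172 at E14.5, then 284 at E16.5 and 857 at E18.5, and last 581 at P1 and 234 at P5. It was 3.02-fold higher at E18.5 than at E16.5 (2.91 to 3.13) and 2.48-fold lower at P5 than at P1 (2.30 to 2.68). Asz1 (also called Gasz, ENSMUSG00000010796, chromosome 6, 18050964 to 18109061), which anchors the granule to the outer membrane of mitochondria, stood at 15.2 at E11.5 (12 UMIs), then 40.7 at E12.5 and 63.7 at E14.5, then 98.8 at E16.5 and 162 at E18.5, and last 96.5 at P1 and 67.2 at P5. Asz1 at E16.5 and at P1 did not differ beyond counting error (94.98 to 103 and 88.9 to 105), nor did E14.5 and P5. Mael spanned 0.442% to 100% of its highest level and Asz1 9.34% to 100%, so the 2 genes with the same peak differed in range.

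Tdrd1 and Tdrd9, the Tudor domain members, came late. Tdrd1 (ENSMUSG00000025081, chromosome 19, 56826209 to 56870012), which binds the methylated arginines of PIWI proteins, stood at 1.26 CPM at E11.5 (1 UMI), then 2.09 at E12.5 (16 UMIs) and 8.87 at E14.5, then 30.8 at E16.5 and 62.1 at E18.5, and last 202 at P1 and 141 at P5. The neighbouring ages from E12.5 to P1 differed by 4.25-fold (2.58 to 7.52), 3.47-fold (3.05 to 3.97), 2.02-fold (1.77 to 2.29) and 3.26-fold (2.89 to 3.68), each time with the later age higher. At E11.5 its germ cell level (0.0320 to 7.04) could not be told from the somatic level of 0.791. Tdrd9 (ENSMUSG00000054003, chromosome 12, 111971559 to 112068854), a Tudor domain protein with a helicase domain, had 0 UMIs in the 791216 of E11.5, which allows up to 3.79 CPM, then stood at 1.96 at E12.5 (15 UMIs) and 3.21 at E14.5, at 40.7 by E16.5 and 114 by E18.5, and last at 118 at P1 and 72.6 at P5. It was 12.7-fold higher at E16.5 than at E14.5 (10.4 to 15.5), and E18.5 and P1 did not differ beyond counting error (ratio 1.04, 0.934 to 1.16). Tdrd9 overlaps Rd3l on the opposite strand, which was counted as a separate gene.

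Gtsf1 (ENSMUSG00000022487, chromosome 15, 103402405 to 103430470), a small zinc finger protein that assists PIWI proteins in cutting their targets, was the member that was highest at P5. It stood at 2.53 CPM at E11.5 (2 UMIs), then 7.56 at E12.5 and 27.8 at E14.5, then 53.6 at E16.5 and 170.4 at E18.5, and last 785 at P1 and 1161 at P5. From E12.5 on each age was above the one before it beyond counting error, with ratios of 4.61 from E18.5 to P1 (4.30 to 4.95) and 1.48 from P1 to P5 (1.42 to 1.54). From E11.5 to E12.5 the ratio of 2.99 (0.792 to 25.3) did not leave out 1. At P5, Gtsf1 had a UMI in 98.6% of the 71 germ cells and in 2.63% of the somatic cells, at median depths of 54018 and 6638, and at 2000 UMIs per cell the shares were 82.9% and 0.714%.

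Tex15 (ENSMUSG00000009628, chromosome 8, 33516738 to 33585582), needed for the repair of meiotic breaks and for piRNA-guided DNA methylation in the testis, was the member with the sharpest peak. In germ cells it stood at 11.4 CPM at E11.5 (9 UMIs), then 48.6 at E12.5 and 115 at E14.5, then 2065 at E16.5 and 739 at E18.5, and last 523 at P1 and 321 at P5. E16.5 was 17.9-fold above E14.5 (17.3 to 18.46) and 2.79-fold above E18.5 (2.71 to 2.88). Its share of germ cells with a UMI was 60.8% at E14.5 and 94.99% at E16.5, and at 2000 UMIs per cell 21.6% and 90.8%.

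Tex15 was also the member with the highest somatic level over all libraries (14.1 CPM), and stood there at 1.52 CPM at E11.5, then 11.2 at E12.5 and 10.5 at E14.5, then 33.2 at E16.5 and 9.11 at E18.5, and last 8.34 at P1 and 13.7 at P5. At E12.5 it stood at 16.55 in supporting, 15.5 in epithelial and 7.78 in mesenchymal cells and at 0.634 in erythroid cells, where germ cells had 48.6. At E16.5 erythroid cells were higher as well, at 11.6 (100 UMIs), and supporting cells, at 37.7, were 3.25-fold above them (2.66 to 4.02). The same ratio was 26.1 at E12.5, where erythroid cells held 2 Tex15 UMIs (7.12 to 217), and 2.85 at P1 (1.94 to 4.25). Supporting cells of E12.5 held 188 Tex15 UMIs beside 1 Mael UMI, whereas germ cells of that library held 373 and 370. At P5 supporting cells held 374 Tex15 UMIs and 21 of Mael, and germ cells 1134 and 826. At E18.5 the ratio of Tex15 to Mael UMIs was 0.874 in supporting cells and 0.862 in germ cells. Supporting and epithelial cells were above erythroid cells in 7 of 7 libraries with an interval that left out 1, and mesenchymal cells in 6 of 7. Cells that no marker list claimed reached 291 CPM of Tex15 at E16.5, at a median depth of 890.5 UMIs. In the highest library of each gene, they also reached 216 CPM of Sycp3, 117 of Dazl and 51.6 of Ddx4. Over all libraries they held 765 of the 5716 somatic Tex15 UMIs, and their part in the somatic value of each age was not tested.

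Across the 7 libraries, 7 of the 8 members outside the gate were higher in germ than in somatic cells, where 21.7% of the 18725 genes tested were (edgeR's quasi-likelihood test on summed UMIs, library as block, adjusted p of 0.05). The log2 differences were 6.81 for Gtsf1 (SE 0.35, adjusted p = 1.16e-07), 6.78 for Asz1 (SE 0.34, adjusted p = 1.16e-07), 6.66 for Mael (SE 0.38, adjusted p = 1.76e-07) and 6.04 for Piwil2 (SE 0.33, adjusted p = 1.37e-07). Tdrd9 at 5.34 (SE 0.70, adjusted p = 5.86e-05), Tdrd1 at 4.82 (SE 0.73, adjusted p = 1.63e-04) and Tex15 at 4.52 (SE 0.51, adjusted p = 1.79e-05) were called with smaller differences. The median over the 8 members was 5.69, beside -0.16 over all genes tested. Ddx4 at 6.38 and Dazl at 7.36 are given without test because they are in the gate. At 2000 UMIs per cell the share of cells with a UMI was higher in germ than in somatic cells in 50 of the 56 pairs of member and library, the exceptions being Nanos3 from E14.5 on and Tdrd9 at E11.5. Over all germ cells, Mael was found in 80.5%, Asz1 in 59.6% and Piwil2 in 48.2%, and in erythroid cells in 3.02%, 0.65% and 0.57%.

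Over the order of the ages, 4 of the 8 members rose in germ cells and 1 fell, where 5.91% of the 12225 genes tested rose and 5.21% fell. The slope, in log2 units per step from one age to the next, was 1.45 for Gtsf1 (SE 0.11, edgeR quasi-likelihood adjusted p = 5.26e-04), 1.26 for Tdrd1 (SE 0.14, adjusted p = 0.00163), 1.32 for Tdrd9 (SE 0.26, adjusted p = 0.0144) and 0.48 for Piwil2 (SE 0.10, adjusted p = 0.0188). Nanos3 fell by 1.196 per step (SE 0.23, adjusted p = 0.012). Mael at 0.84 (adjusted p = 0.0926), Tex15 at 0.81 (adjusted p = 0.338) and Asz1 at 0.29 (adjusted p = 0.243), whose levels peak midway, were not called. A joint edgeR test of a linear and a quadratic term asks for any change with age and gives no direction. It called all 8, with adjusted p of 0.00098 for Mael, 0.00339 for Tex15 and 0.0163 for Asz1. Of the 13425 genes in that test, 2494 were called with a linear term above 0 and 1384 with one below. Ddx4 and Dazl, not tested, had slopes of -0.10 and 0.13. The median slope of the 8 members was 0.82 and that of all genes 0.02. Without composition scaling, 828 genes rose and 437 fell in place of 723 and 637, and the members' calls were 4 and 1 as before.

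Some of these calls rested on single libraries. Piwil2 was not called without E11.5 (adjusted p = 0.0924), without E12.5 (0.0541) or without P1 (0.084), with edgeR and DESeq2 values from 1.11e-04 to 0.0924 over its 18 alternatives. Tdrd9 was not called without E11.5 (adjusted p = 0.0547) or E12.5 (0.0653), in a range from 2.47e-08 to 0.0653, and Nanos3 was not called without P1 (0.0549), in a range from 3.03e-05 to 0.0549. Tex15 was called without E16.5 (adjusted p = 0.0181, range 0.00339 to 0.838) and Mael without P5 (0.0251, range 2.58e-04 to 0.285). DESeq2 on all 7 libraries called both, with adjusted p of 2.58e-04 for Mael and 0.00683 for Tex15. By that tool 6 members rose, beside 1327 of all 12225 genes tested, where edgeR called 723. Gtsf1 and Tdrd1 were called under each of the 18 alternatives.

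**Figure D4:**
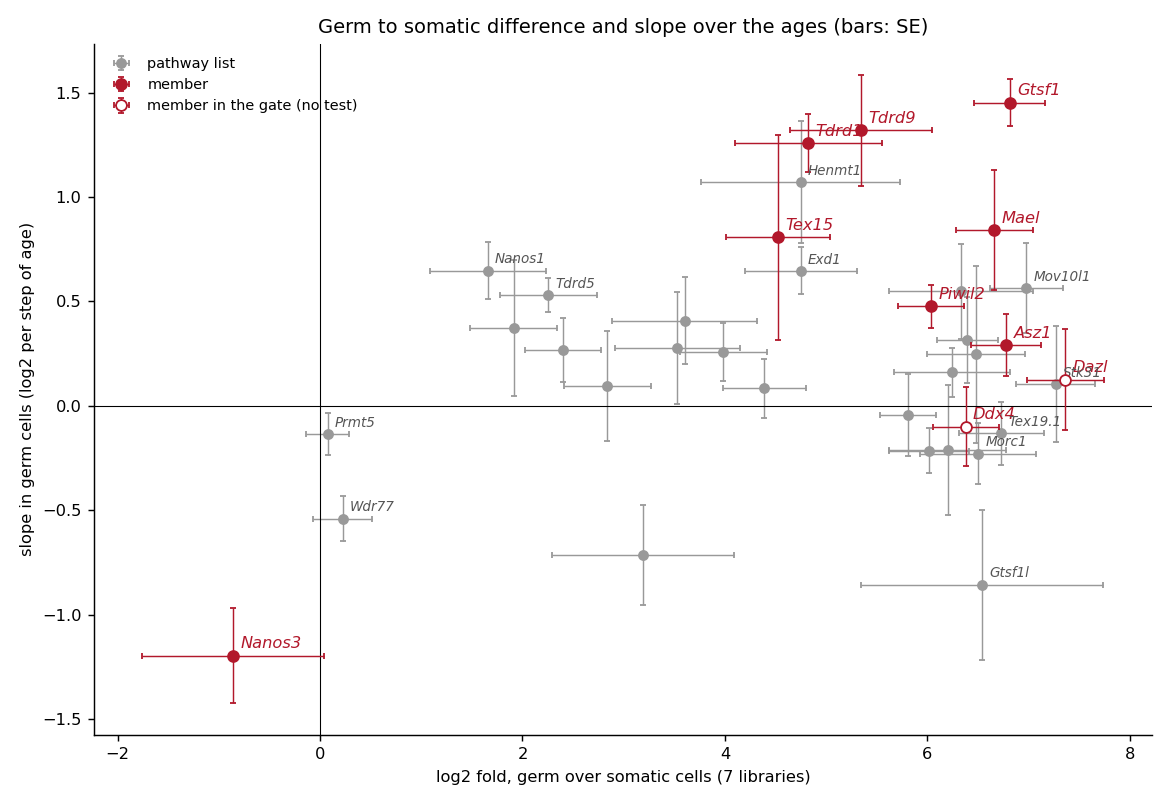
Log2 fold of germ over somatic cells (x axis) against the slope over the ages in germ cells (y axis, log2 per step), with SE bars. Members are red (open for Ddx4 and Dazl, which are not tested) and 26 genes of the wider pathway list are grey. Plotted pathway genes described in the text are named, except Piwil4. Gtsf1, Tdrd1 and Tdrd9 have slopes above 1.2 and Nanos3 lies alone at the lower left, with -0.86 and -1.196.

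From one age to the next, a member was counted as different when its level differed at least 2-fold, among genes with at least 10 CPM in either library. Members that met this minimum numbered 7 from E11.5 to E12.5, 8 from E12.5 to E14.5 and 9 in each later step. From E11.5 to E12.5, Ddx4, Dazl, Mael, Piwil2, Tex15 and Asz1 were higher and none lower, where 7.76% of 7615 genes were higher and 10.5% lower. Piwil2 was at the threshold (log2 1.002) and fell short of it with each of the 4 other gates, without possible doublets and with a higher minimum of genes per cell (log2 0.82 to 0.998), which left 5 members. From E12.5 to E14.5, Dazl, Mael, Tex15 and Gtsf1 were higher and Nanos3 lower (background 12.3% and 7.33% of 7655 genes). From E14.5 to E16.5, Tdrd1, Tdrd9 and Tex15 were higher, and Nanos3, 16.8-fold lower, was not counted because its 9.72 CPM missed the minimum of 10. In this step 37.7% of 8919 genes were higher and 12.9% lower, and the median of all genes was 0.60 higher on the log2 scale. The 3 of 9 members that were higher are a share near that of all genes. From E16.5 to E18.5, Mael, Tdrd1, Tdrd9 and Gtsf1 were higher and Ddx4 and Tex15 lower (background 9.76% and 18% of 8855 genes). The 2 of 9 members that were lower are a share near that of all genes. Tdrd1 was at the threshold in this step (log2 1.01) and fell short of it with 3 of the 4 other gates (0.90 to 0.99986). From E18.5 to P1, Tdrd1 and Gtsf1 were higher (background 9.64% higher and 11.1% lower of 8554 genes), and from P1 to P5 none was higher and Dazl and Mael were lower (background 11.9% and 7.9% of 8460 genes). Ddx4 and Dazl are in the gate, so that their entries are description only.

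The step from E14.5 to E16.5 depended on scaling. With TMM-scaled levels, 1763 genes were higher and 2256 lower in place of 3359 and 1150, and relative to it Ddx4 (log2 0.10), Mael (0.14) and Asz1 (0.05) were nearly level, where the unscaled values were 0.68, 0.72 and 0.63. Tex15 (3.58), Tdrd9 (3.08) and Tdrd1 (1.22) stayed past 2-fold, and Dazl, at -1.26 in place of -0.68, was counted as lower. Nanos3, at -4.65 in place of -4.07, was counted as well, since its scaled level passed the minimum. The same scaling turned the split from E11.5 to E12.5 from 591 higher and 803 lower into 1313 and 378, with the same 6 members higher. From E12.5 to E14.5 it took Dazl (0.98) out of the members higher and brought in Tdrd1 (2.03), whose scaled level passed the minimum.

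Germ cells of E14.5, which were entering meiosis, were split by their own Sycp3 UMIs as a share of Sycp3 and Pou5f1 UMIs, Pou5f1 being a pluripotency factor and Sycp3 a part of the synaptonemal complex. The 617 cells with a share under 0.25 and the 1074 cells with a share over 0.75 held Stra8, the inducer of meiotic entry, at 489 and 1951 CPM and Utf1 at 284 and 52.4, which the split did not use. Tex15 stood at 34.1 in the Pou5f1-high cells, 64.9 in the 919 cells between and 249.9 in the Sycp3-high cells, a ratio of 7.33 (6.57 to 8.21). Gtsf1 stood at 10.3, 20.6 and 52.4 (ratio 5.09, 4.14 to 6.30). Tdrd9 stood at 1.34, 1.65 and 6.72 (ratio 5.03, 2.83 to 9.62). Mael stood at 88.6, 158 and 263 (ratio 2.97, 2.76 to 3.20).

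Within the same library, the other members differed less or the other way. Tdrd1 had a ratio of 2.20 (1.58 to 3.11), Piwil2 of 1.72 (1.49 to 1.99) and Asz1 of 1.26 (1.13 to 1.40). Ddx4, at 180.2 and 226, and Dazl, at 1119 and 1418, differed by 1.25-fold and 1.27-fold. Nanos3 stood at 16.9 in the Pou5f1-high cells, 9.28 between and 3.83 in the Sycp3-high cells, 4.41-fold lower in the latter (3.16 to 6.26). Cells of 1 library are no replicates, so these ratios carry counting intervals and no test. Median depth was 16311 UMIs in the Pou5f1-high cells and 10919.5 in the Sycp3-high cells.

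**Figure D5:**
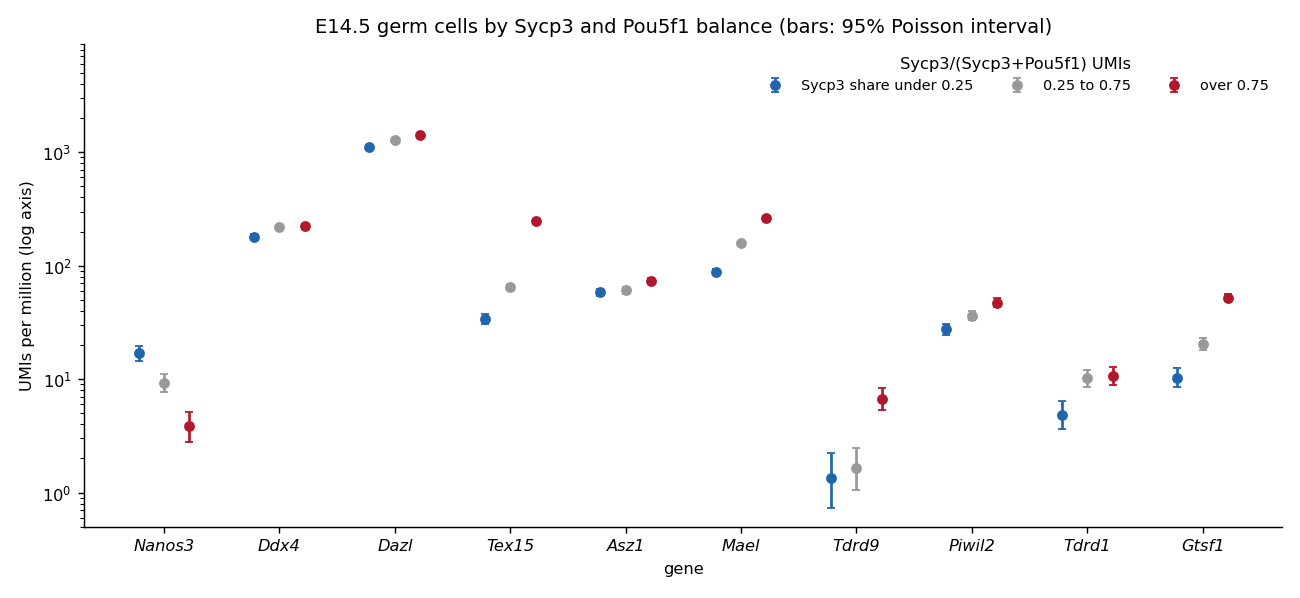
Members in E14.5 germ cells in CPM (log axis), split by Sycp3 UMIs as a share of Sycp3 plus Pou5f1 UMIs (blue under 0.25, 617 cells; grey 0.25 to 0.75, 919 cells; red over 0.75, 1074 cells), with 95% Poisson intervals. Tex15, Gtsf1, Tdrd9 and Mael are at least 2.97-fold higher in the red than in the blue group, and Nanos3 is lower.

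The wider pathway was followed in a list of 31 other genes. Of the 28 that could be tested, 25 were higher in germ than in somatic cells, none was lower and 3 were not called, beside 21.7% higher of all genes tested, with a median difference of 4.57 on the log2 scale. Among the 23 with at least 20 CPM in germ cells of any library, the largest edgeR differences were those of Stk31, a Tudor domain kinase (7.27, SE 0.39, adjusted p = 1.37e-07), Mov10l1, the helicase that feeds piRNA precursors to PIWI proteins (6.98, SE 0.36, adjusted p = 1.16e-07), Tex19.1 (6.73, SE 0.42, adjusted p = 2.87e-07), Gtsf1l, a relative of Gtsf1 (6.54, SE 1.196, adjusted p = 8.52e-04), and Morc1, a transposon repressor (6.50, SE 0.57, adjusted p = 2.56e-06). The smallest were those of Prmt5 (0.08, SE 0.21, edgeR adjusted p = 0.787) and its partner Wdr77 (0.23, SE 0.29, adjusted p = 0.543), which methylate arginines in many cell types, and of Nanos1 (1.66, SE 0.57, adjusted p = 0.0275). Prmt5 had a median of 41.3 CPM in germ cells and 37.2 in somatic cells.

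Over the ages, 4 of the 26 pathway genes tested rose in germ cells and 1 fell, with a median slope of 0.20, beside 5.91% rising and 5.21% falling of all genes tested. The 1 gene that fell is a share near that of all genes. Those that rose were Tdrd5 (slope 0.53, edgeR adjusted p = 0.00507), Henmt1, which methylates the ends of piRNAs (1.07, adjusted p = 0.0427), Exd1 (0.65, adjusted p = 0.00828) and Nanos1 (0.65, adjusted p = 0.0173), and Wdr77 fell by 0.54 per step (adjusted p = 0.0134). Gtsf1l stood at 75.8 CPM at E11.5 with a median of 1.81 over the ages, and its relative Gtsf1 was at its lowest at E11.5. The slope of Gtsf1l, -0.86, was not called (edgeR adjusted p = 0.161). A further 4 genes of piRNA-directed DNA methylation or of its male germ cell setting were singled out after their values were seen. Of 86056128 germ cell UMIs in all libraries, Spocd1 had 0, which allows up to 0.0349 CPM, Dnmt3l had 4, Nanos2 had 17 and Piwil4, the nuclear PIWI protein, had 233, which is 2.71 CPM (2.37 to 3.08). Low as it was, Piwil4 was called higher in germ than in somatic cells (log2 3.53, SE 0.62, edgeR adjusted p = 4.84e-04). Tex15, tied above to piRNA-guided DNA methylation, reached 2065 CPM at E16.5, so the 4 genes do not stand for all genes of that process.

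For each member, the 3 other genes with the most alike course over the 7 germ cell sums were taken by Pearson correlation of log2(CPM + 1) among 8411 genes, as a description of 7 points that share libraries. Tex15 was closest to Tef, Trip4 and Gm10010, Tdrd9 to Zfp707, Lhfp and Prdm16, and Tdrd1 to Pla2g12a, Btbd1 and Med17, with r of 0.998 for the first of each. Gtsf1 was closest to Lyrm7, Ybx2 and Sc5d (0.995 for the first), Piwil2 to Shoc2, Spata33 and Cadps2 (0.991), Asz1 to Gsdme, Cdk2 and Cgrrf1 (0.992), and Mael to Cdk2, Map2k5 and Fig4 (0.989). Ddx4 was closest to Map3k3, Samd4b and Trpc1 (0.984), Dazl to Nefh, Ehmt1 and Coq10a (0.974), and Nanos3 to Plcd1, Hba-x and Dennd1c (0.998). Hba-x, a haemoglobin gene, stood at 126 CPM at E11.5, 138 at E12.5 and 0 at P1 in the germ cell sums. Whether its UMIs came from germ cells was not tested. Ybx2, an RNA-binding protein of oocytes, went from 7.58 CPM at E11.5 to 312 at P1, in the same order of ages as Gtsf1 up to P1. Among the 45 pairs of members, r ran from -0.97 to 0.98, 9 were above 0.9 and 9 below 0.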

How the data were processed

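Raw UMI counts per gene and cell were those the authors deposited, made with Cell Ranger 3.1.0 against mm10 (GRCm38), with 1 matrix per library and no replicate of any age. Cells with at least 200 genes were kept, and no doublet caller was run. Germ cells whose summed somatic marker UMIs reached or passed their gate sum were left out, as possible doublets, in an alternative. A somatic cell joined the class whose marker list had the most UMIs, at least 2 and more than any other list. A marker of the erythroid list is not reported here. UMIs were summed per library and cell group and scaled to CPM, with exact 95% Poisson intervals. Intervals and limits cover counting error only. A count of 0 was bounded by 3 counts, which lies below the upper end of the exact interval. For Tdrd9 at E11.5 these limits were 3.79 and 4.66 CPM.

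Germ and somatic sums were compared with edgeR 4.0.16 in R 4.3.3 (quasi-likelihood, TMM, library as block), and the germ sums were fitted to the order of the ages, with Benjamini-Hochberg adjustment over all genes tested. Tests were checked on simulated counts with the same dispersion for all genes and few genes changed. That check does not show how the tests behave on these data. DESeq2 1.42.0, other gates, filters and scalings, and leaving out each library were the alternatives. Levels between ages used numpy 2.4.6, scipy 1.17.1 and pandas 2.3.3. Sequences came from RefSeq and gene positions from a GRCm38 annotation. Genes named were the 10 members, the 5 largest and 3 smallest germ to somatic differences of the pathway list among genes with at least 20 CPM, and the 3 genes most like each member. Genes of the list called over the ages, and 4 genes with few UMIs, were named beyond that rule. The members and lists were chosen with earlier results of these data known. The p-values measure the spread between libraries of different ages.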

Additional observations from a re-analysis of the deposited data

Results flagged for a closer look

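Nanos3 was singled out because its germ to somatic ratio lay on opposite sides of 1 at different ages. Germ cells were 4.47-fold above somatic cells at E11.5 and 8.25-fold above at E12.5. The ratio was 0.139 at E16.5 and 0.106 at E18.5, then 0.171 at P1 and 0.169 at P5, so germ cells were below somatic cells in each of these 4 libraries. With 1 library per age, the difference between the ages was not tested.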

How the results depend on the processing

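No paired analysis was possible because each age has 1 library, which concerns the fits over the ages, while the germ to somatic fit paired the sums of each library by its block. The germ to somatic calls of 7 members held under each of 19 alternatives, and only Nanos3, not called, turned direction, to 0.90 without the library block (adjusted p = 0.387, DESeq2 and edgeR range 0.113 to 0.776). A joint test of a linear and a quadratic term, which gives no direction of its own, called 7 members with a linear term above 0. Over the ages, 6 members rose by DESeq2 and 2 to 5 when a library was left out, with 2 without E11.5 or E12.5. Without P1, 3 rose and 0 fell. Of the pathway genes, the joint test called 13 with a linear term above 0, beside 2494 of all 13425 genes it tested. With a library left out, 2 to 5 pathway genes rose, 2 of them without E11.5 and 2 without P1. Among all genes, 723 rose and 637 fell, against 1327 and 1064 with DESeq2, 1407 and 857 with no filter, and 301 to 1136 and 209 to 1033 with a library left out, lowest without P1 and highest without E16.5. The joint test called 2494 with a linear term above 0 and 1384 below. Between neighbouring ages, 24 differences of members passed 2-fold, 38 passed 1.5-fold and 13 passed 3-fold, with Ddx4 and Dazl of the gate included. The 7 to 9 members that met the minimum in each step are the base of these totals. Many genes passed 1.5-fold in each step, and their counts follow. Among all genes from E14.5 to E16.5, 4510 of 8919 were at least 1.5-fold higher and 1819 lower, and 1898 and 611 at 3-fold. From E11.5 to E12.5, 1310 of 7615 were at least 1.5-fold higher and 1826 lower, and 164 and 240 at 3-fold. From E12.5 to E14.5 these counts were 1853 and 1295 of 7655, and 377 and 155 at 3-fold. From E16.5 to E18.5 they were 1813 and 2924 of 8855, and 334 and 526 at 3-fold. From E18.5 to P1 they were 1769 and 1951 of 8554, and 376 and 334 at 3-fold. From P1 to P5 they were 1866 and 1669 of 8460, and 479 and 204 at 3-fold. At E11.5, with 791216 germ cell UMIs, a count of 0 allows a level of up to 3.79 CPM.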
